A study of Lachancea waltii with 4 samples.

Results

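A group of very highly expressed genes was found in the budding yeast Lachancea waltii (Kluyveromyces waltii), with 90 members among the 5192 genes measured, or 1.73% of them. They were chosen by their measured level, as all genes at 4.4 or more on a log2 scale of RNA over genomic DNA relative to the median gene of the array, averaged over 4 arrays. The values that chose them, the level and the RNA and genomic DNA signals behind it, are therefore given as a description and not tested. Each array held RNA of strain NCYC 2644, labelled with Cy3, together with Cy5-labelled genomic DNA of that strain, on oligonucleotides of 55 bases with 2 probes for each gene. The cells had grown to mid-log phase in rich medium without further treatment, so there is 1 group of 4 samples, 1 growth state and no second condition to compare with. The study's methods call such arrays biological replicates, and the labels number the RNA samples 1 to 4. All 4 arrays share 1 slide, so that an effect of the slide cannot be told apart from the level itself.

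A cell growing fast in rich medium spends much of its transcription on a small set of genes. In budding yeasts these are known to include the proteins of the cytoplasmic ribosome, the enzymes of glycolysis and fermentation, translation elongation factors, histones and some chaperones and cell wall proteins. Genes of this kind are also known for strong codon bias, because the codons read by the most abundant transfer RNAs are favoured in proteins made in large amounts. The genes of this array are known only by identifiers of the form Kwal_contig.number, and the files pair none of them with a name or a product, so which of these functions the 90 genes have was not analysed here.

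The probes of the 90 genes gave strong signal. All 712 spots used for them, from 178 of 180 probes on 4 arrays, were well above background in both channels, and 0 had saturated pixels. RNA signal at a member spanned 22051 to 361129 intensity units over the 4 arrays, where the scanner saturates at 776866 units and the median gene read 1191 to 1716 units. The probes left out were 1 each of Kwal_14.1302 and Kwal_27.9887, which were marked as outliers and left these genes with 1 usable probe.

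The levels of the 90 genes spanned 4.48 to 6.24, with a median of 5.33, which is 40.2-fold over the median gene. They were not spread evenly. Per interval of 0.2 log2, the number of genes fell from 90 between 2 and 2.2 to 7 between 4.2 and 4.4 and 5 between 4.4 and 4.6, then rose to 20 between 5.2 and 5.4 and ended with 1 between 6.2 and 6.4. Of the 90 genes, 61 (67.8%) lay between 5 and 5.8. The low point of the distribution thus holds genes on both sides, and the group is separated from the rest by a dip and not by an empty interval.

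The dip was deeper in the RNA signal taken alone, with no division by genomic DNA. There, 0 genes lay between 5.4 and 5.6 and 27 between 6.2 and 6.4. Above that empty interval stood 84 genes, of which 80 were members. All 90 members had an RNA level of at least 4.4, as had 118 genes in all, and 83 of the 90 were among the 90 genes of highest RNA. The other 10 members lay below the empty interval, between 4.47 and 5.36. The lowest of them by RNA, Kwal_23.4090, ranked 113 of all genes.

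**Figure D1:**
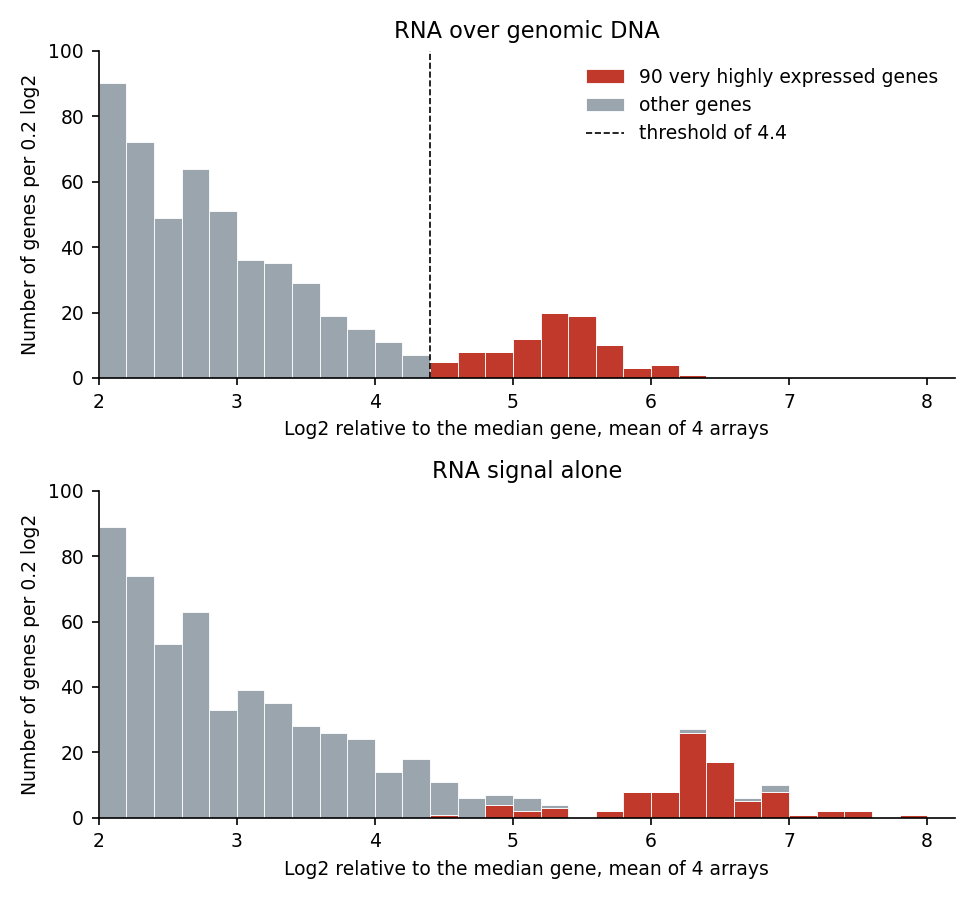
Number of genes per 0.2 log2 interval (y axis) against the level relative to the median gene, mean of 4 arrays (x axis), from 2 upward, for the ratio of RNA to genomic DNA (top) and the RNA signal alone (bottom). Members are red and other genes grey. The counts fall to 5 genes between 4.4 and 4.6 in the ratio, and to 0 genes between 5.4 and 5.6 in RNA alone, before they rise again.

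The same shape was seen on each array taken singly. In intervals of 0.25 log2, the lowest counts before the second rise were 9, 7, 6 and 7 genes on arrays 1 to 4, and the peaks above them held 25, 23, 25 and 22 genes. The number of members at 4.4 or more was 90, 88, 90 and 89 on arrays 1 to 4. When genes were chosen on 3 arrays and read on the fourth, which the choice had not used, most again stood at 4.4 or more. With arrays 1 to 4 left out in turn, these were 90 of 90, 88 of 92, 90 of 90 and 89 of 91 genes. The chosen genes had a median of 5.17 to 5.43 on the array left out. Over all genes, 1.73% stood at 4.4 or more, which is the background for these counts. Every choice held all 90 members, which is largely given, since the mean that defined them includes the same 3 arrays. The array left out shares the slide and the probes, so the counts describe only how repeatable the measurement was.

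The members took up a large share of the label. They held 43.2%, 41.6%, 42.7% and 41.6% of the summed RNA signal of all gene probes on arrays 1 to 4, or 42.3% ± 0.8 (SD, n = 4), with 1.76% of the probes. Of the summed ratios of RNA to genomic DNA they held 29.2% ± 1.1 (SD, n = 4). Signal intensity is not a count of molecules, so these are shares of light and not of transcripts.

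The highest level belonged to Kwal_23.4381, at 6.37, 6.04, 6.37 and 6.20 on arrays 1 to 4, or 6.24 ± 0.16 (SD, n = 4), which is 75.8-fold over the median gene. Kwal_56.23626 followed with 6.21, 6.03, 6.32 and 6.15, or 6.18 ± 0.12 (SD, n = 4). Kwal_33.15540 read 6.14, 6.03, 6.25 and 5.95, or 6.09 ± 0.13 (SD, n = 4). The ranges of these genes over the arrays overlap, and the steps between neighbours in this order, such as 0.07 between the first and the next, are smaller than the SD between arrays. All genes were read on the same arrays, however, and this SD includes shifts that genes share. Array by array, Kwal_23.4381 was the highest gene on all 4, though on array 2 it read 6.04 against 6.03 in Kwal_56.23626. Kwal_23.3311 at 6.08 ± 0.14, Kwal_23.3932 at 6.01 ± 0.10 and Kwal_56.24153 at 5.89 ± 0.13 (SD, n = 4) completed the 6 highest, with no wide step in the mean level among them. The whole group spans 1.77 log2.

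At the lower edge, Kwal_23.4783 stood at 4.49, Kwal_56.23192 at 4.49 and Kwal_23.4361 at 4.48, just inside the threshold. Just outside it were Kwal_33.13256 and Kwal_27.10636, both at 4.39, and Kwal_27.10898 at 4.31. Kwal_33.13256 read 4.56, 4.10, 4.66 and 4.26 on arrays 1 to 4 and so fell on both sides of the threshold. Kwal_56.23192 did the same, with 4.71 and 4.46 on arrays 1 and 3, a value just under the threshold on array 2 and 4.37 on array 4. The edge therefore lies within the error of single genes, and a threshold of 4.2 or of 4.6 would give 97 or 85 genes.

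The SD between arrays was larger at the median member than at the median gene. The SD over the 4 arrays had a median of 0.15 on the log2 scale over the 90 members, 0.11 over the 90 genes next below the threshold and 0.10 over all genes. It exceeded 0.2 in 19 of the 90 members, in 9 of the 90 genes next below and in 505 of all 5192 genes. The widest spread was that of Kwal_27.12798, which read 5.04, 4.50, 5.37 and 4.97 on arrays 1 to 4, or 4.97 ± 0.36 (SD, n = 4). Kwal_23.4240 read 5.32, 4.96, 5.73 and 5.46, or 5.37 ± 0.32 (SD, n = 4). In both genes array 2 was lowest and array 3 highest. At the other end, Kwal_27.10164 stood at 5.44 and Kwal_14.1382 at 5.70, each with an SD of 0.04 over the 4 arrays.

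Much of the spread followed one division of the arrays. In 54 of the 90 members (60.0%) arrays 1 and 3 both read higher than arrays 2 and 4, and in 1 member both read lower. The median level of the group was 5.43 and 5.43 on arrays 1 and 3 and 5.17 and 5.24 on arrays 2 and 4, and the median difference per gene between the means of these pairs was 0.19. Among all genes, arrays 1 and 3 were both higher in 26.8% and both lower in 19.8%, with a median difference of 0.02, and among the 90 genes next below the threshold they were both higher in 65.6%, with a median difference of 0.13. The median gene was brighter in RNA on arrays 2 and 4, at 1716 and 1583 units, than on arrays 1 and 3, at 1191 and 1302 units. The labels name no feature that divides the arrays in this way, and the part of RNA brightness in the difference was not tested.

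**Figure D2:**
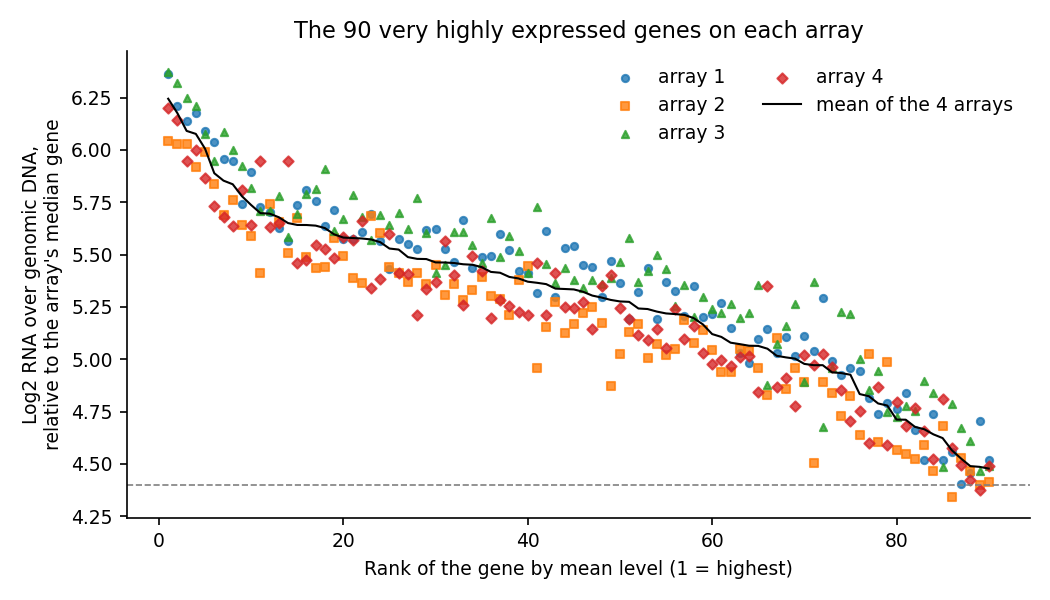
Level of the 90 members on each of the 4 arrays (y axis, log2 of RNA over genomic DNA relative to the array's median gene) against the rank of the gene by its mean (x axis). The black line is the mean and the dashed line the threshold of 4.4. Arrays 1 and 3 lie mostly above arrays 2 and 4.

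The level is a ratio, and both of its parts differed in the members. The RNA signal of a member was at the median 79.4-fold over the median gene. The genomic DNA signal, which for a gene present once should depend on the probe and not on expression, was 1.98-fold over the median gene at the median member, against 1.28-fold in the 90 genes next below. It lay above the median gene in 88 of 90 members, against 68 of 90 next below, and was over 2-fold in 42 members, in 3 of the 90 next below and in 4.82% of all genes. On the log2 scale the median member stood at 6.31 in RNA alone and at 5.33 after division by genomic DNA.

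Within the group, genes of brighter RNA also had brighter genomic DNA, with r = 0.73 over 90 genes, which share arrays and are not independent replicates. Over all genes this r was 0.29. Over the 90 genes next below it was 0.97, and 0.87 without the 1 gene of very low genomic DNA among them, so it was not higher in the members. A choice of genes within a band of the ratio raises this r by its construction. The level correlated with RNA at r = 0.70 and with genomic DNA at r = 0.03 in the members. Among members, genomic DNA rose by 0.0769, 0.0749, 0.0762 and 0.0652 units per unit of RNA on arrays 1 to 4. When the part of the genomic DNA signal that rose with RNA over all probes brighter than 10000 units was removed, 105 genes stood at 4.4 or more, and 89 members were among them. This removal lowers the genomic DNA signal most where RNA is brightest, so it raises the ratio of such genes by its construction. The members' median became 6.30, and these counts are no support for the group. The member without a value was then Kwal_23.4381, whose remaining genomic DNA signal was not above 0 in at least 1 array.

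Single genes show both ends of this relation. Kwal_56.23626, second by level, had the brightest RNA of all genes, at 292801, 358955, 329877 and 358974 units on arrays 1 to 4, and a genomic DNA signal 3.18-fold over the median gene. Its RNA was thus brighter than that of Kwal_23.4381, which read 197999, 227764, 203972 and 221914 units on the same arrays with a genomic DNA signal of 1.93-fold, and the arrays of these genes do not overlap in RNA. Kwal_23.4090 was dimmest in both channels among the members. Its RNA read 23611, 46387, 22417 and 41694 units, its genomic DNA was 0.889-fold of the median gene, and its level was 4.62 ± 0.15 (SD, n = 4). Its RNA units on arrays 2 and 4 were well above those on arrays 1 and 3. Kwal_27.12798 had the brightest genomic DNA of the group, at 3.997-fold, with RNA at 163786, 190468, 200576 and 198066 units. Its wide spread over arrays came with a genomic DNA signal of 34811, 55586, 35994 and 39062 units, in which array 2 stands apart.

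The empty interval in RNA was also crossed from the other side, by 4 genes that are no members. They were Kwal_55.22201, Kwal_47.16834, Kwal_5.482 and Kwal_47.16825, picked out after their values were seen. Their RNA levels of 6.62, 6.29, 6.88 and 6.98 lay among those of the members. Their genomic DNA signals were 10.4-fold, 8.66-fold, 16.4-fold and 18.3-fold over the median gene, above that of every member, and their levels were 3.23, 3.16, 2.82 and 2.77.

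**Figure D3:**
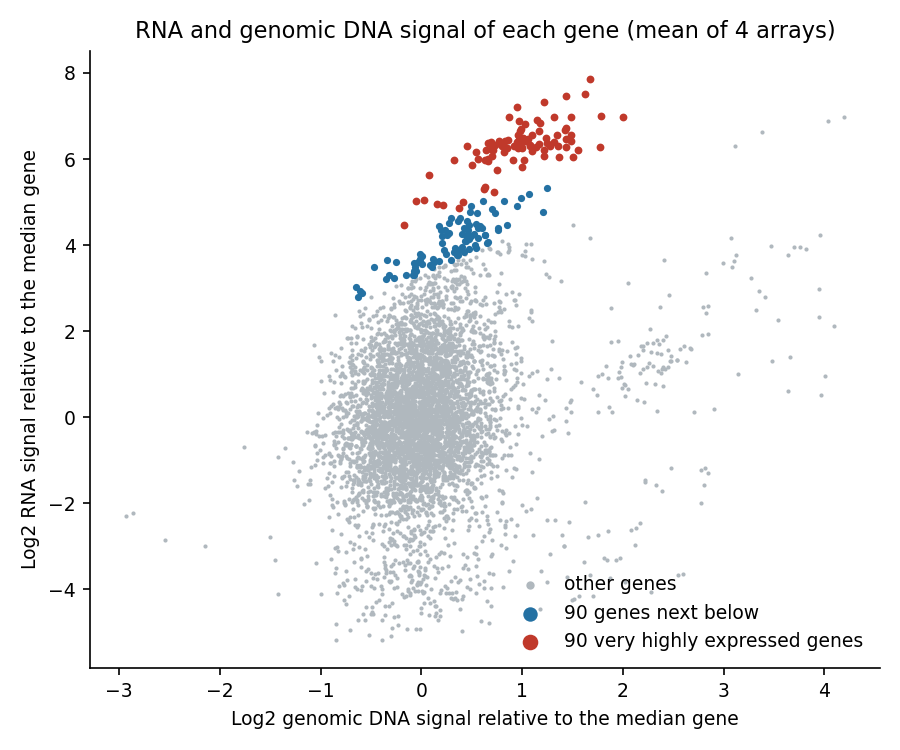
RNA signal (y axis) against genomic DNA signal (x axis) of each gene, both log2 relative to the median gene, mean of 4 arrays. Members are red, the 90 genes next below the threshold blue and other genes grey, and 9 genes of very low signal lie outside the axes. Members stay under 2 on the x axis, and the 4 other genes of equally bright RNA lie beyond 3.

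A gene's level is the midpoint of its 2 probes, so the rule did not use the difference between them directly, and this difference was tested. The choice is still not free of it, since a gene with 1 low probe is less likely to reach 4.4. Kwal_47.17049, for example, read 2.73 and 4.48 with its probes and was no member at a level of 3.60. A low count of differing probes among members is thus in part given by their choice. The gap between the probes had a median of 0.10 on the log2 scale over the 88 members with 2 usable probes. It was 0.12 over the 90 genes next below and 0.23 over all genes, but these groups differ in how far their probes overlap. In 86 of 88 members both probes read 4.4 or more. Tested against a 2-fold bound with limma's treat and Benjamini-Hochberg adjustment over all 4939 genes, 60 genes (1.21%) had probes that differed by more than 2-fold, and 0 of the 88 members were among them. At an unadjusted p under 0.05 the count was 0 members and 113 of all genes (2.29%). At shares this low few calls would be expected in 88 genes, so these counts of 0 are near those of all genes. Without the 2-fold bound, limma gave 19 of 88 members with a difference between probes and 2671 of all 4939 genes.

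The probes of the members also lay closer to each other on the gene than those of most genes. In 53 members (58.9%) the probes overlapped by 50 or more of their 55 bases, against 36 (40.0%) of the genes next below and 12.8% of all genes, and 20 members (22.2%) had probes without overlap, against 66.3% of all genes. Probes that nearly coincide read the same stretch and are close to a technical repeat. With an overlap of 50 or more bases the median gap was 0.09 in members and 0.08 in all genes, so members did not differ less. With an overlap of 5 to 49 bases it was 0.11 in members and 0.20 in all genes. Over the 20 members with separate probes the median gap was 0.22, the highest was 0.82 and 0 differed by more than 2-fold in the test. Over all 3270 genes with separate probes the median gap was 0.31, and 59 genes (1.8%) differed by more than 2-fold. At that share a count of 0 in 20 genes is near that of all genes.

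The widest gap between separate probes was that of Kwal_27.12798, whose first probe read 4.56 and whose other probe read 5.38 (limma against 0, adjusted p = 3.14e-05, against 2-fold, unadjusted p = 0.933). Kwal_23.4783, just inside the threshold, followed with 4.83 and 4.15, so that its probes fell on both sides of the threshold. Kwal_14.1382, one of the steadiest genes over the arrays, read 5.98 and 5.41 with its probes.

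The group could also be read with each probe by itself. With the first probe of every gene, 91 of 5089 genes stood at 4.4 or more, and with the other probe 91 of 5042, which is the background for the counts below. Of 89 genes chosen by the first probe that had both, 86 again stood at 4.4 or more with the other probe. With separate probes only, 18 of 20 genes did so, at a median of 5.38 with the probe that did not choose them. In the other direction 86 of 91 genes, and 18 of 21 with separate probes, were at the threshold with the first probe. The lowest reading by the probe that did not choose was 4.07 for genes chosen by the first probe and 2.71 in the other direction. Most genes in the larger counts have overlapping probes, which are close to a technical repeat.

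**Figure D4:**
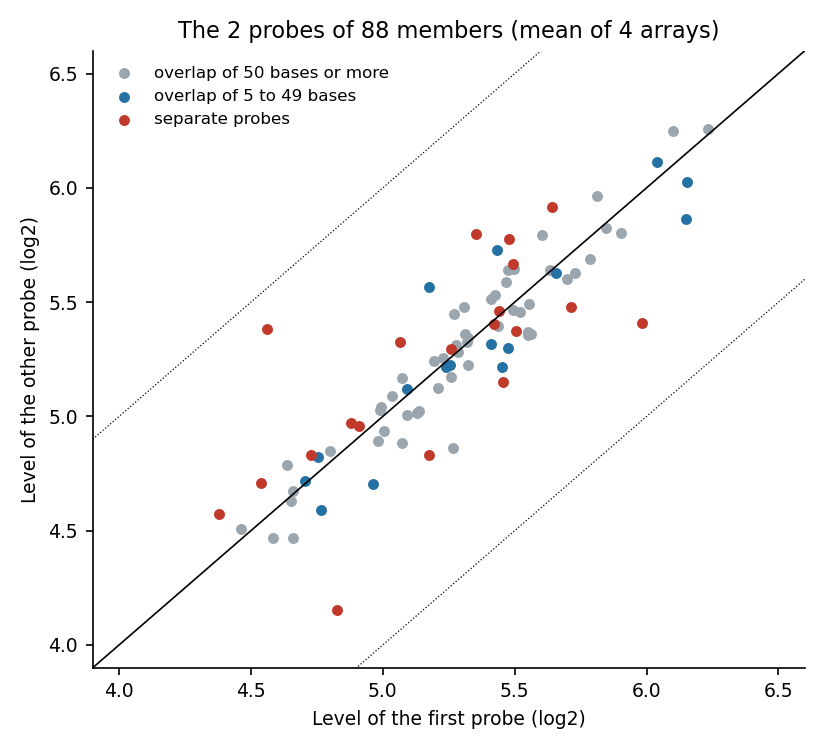
Level of the first probe (x axis) against the other probe (y axis) of 88 members, log2 relative to the median gene, mean of 4 arrays. Colours mark probes that overlap by 50 bases or more (grey), by 5 to 49 bases (blue) or not (red), the solid line marks equal levels and the dotted lines a 2-fold difference. All 88 members lie within the dotted lines.

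No member shared a probe with another gene, while 78 genes of all did. Near copies among the members were rare at the probes. A stretch of 25 or more bases in common was found in 1 pair of members, Kwal_23.3430 and Kwal_23.4783, at levels of 4.83 and 4.49. Such pairs were not counted over all genes. Signal of near-identical copies elsewhere in the genome cannot be told apart from that of the gene itself where a probe matches both.

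The probe sequences themselves, which the rule did not use, also differed between members and other genes in their codons, which are given here as counts with no test. The reading frame was taken as the forward frame of a probe without a stop codon, for the first probe of a gene that has exactly 1 such frame. This gave 47 of 90 members and 3612 of 5192 genes. The codons counted as preferred were 23 that Saccharomyces cerevisiae, a related yeast, favours in its highly expressed genes, a list from general knowledge that was not derived from Lachancea waltii. In the members 73.2% of 824 codons were preferred, with a median of 82.4% per gene, against 66.0% in the genes next below and 45.5% in all genes, with a median of 44.4% per gene. Of the 47 members, 39 lay above that median and 8 below it.

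The share rose with the level, and did so well before the threshold. It was 43.5% of codons in genes at levels of -8 to -3, 41.9% at -3 to -1, 41.9% at -1 to 0, 44.7% at 0 to 1, 48.6% at 1 to 2, 54.3% at 2 to 3 and 64.7% at 3 to 4.4. From there it rose to the 73.2% of the members. The median per gene rose from 47.1% at levels of 1 to 2 to 55.6%, 66.7% and 82.4% in the classes above. Its last step was the largest of these, but in the share of all codons the step before it was larger. The classes also differ in width, so the steps do not set the members apart from a graded rise. Read on the reverse strand in the same way, the share was 52.3% in members and 42.9% in all genes.

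**Figure D5:**
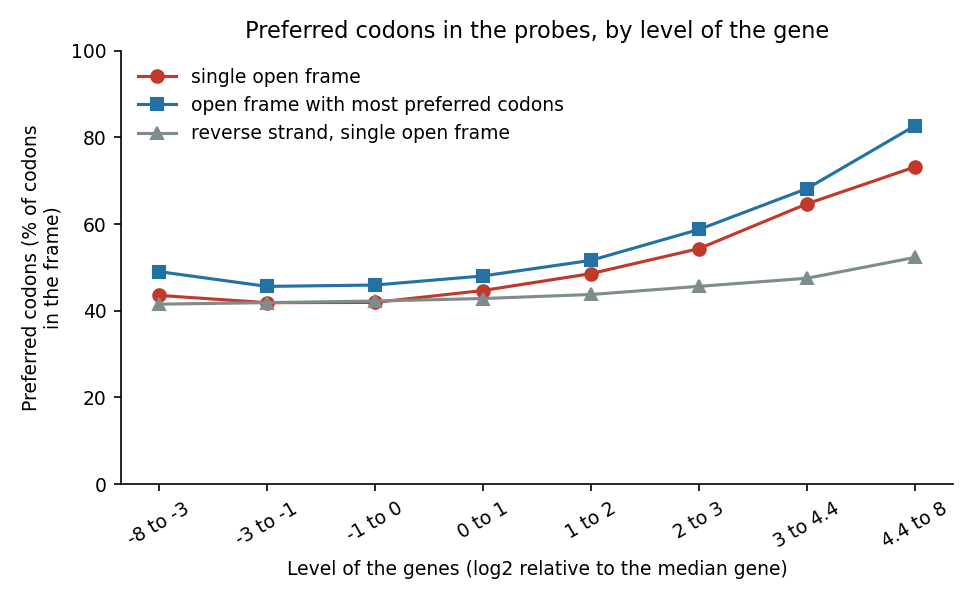
Share of preferred codons in the reading frames of the probes (y axis, % of codons) in 8 classes of gene level (x axis, log2 relative to the median gene). Red marks probes with 1 open frame, blue the open frame with the most preferred codons and grey the reverse strand. The red line starts at 43.5%, falls to 41.9% and then rises to 73.2%.

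The change was not alike for all amino acids. Of lysine codons, AAG made up 90.7% of 75 in the members and 52.3% in all genes, and of tyrosine codons TAC made up all 22 in the members and 53.5% in all genes. For glycine, GGT made up 82.1% of 39 codons against 36.4%. For leucine, TTG made up 62.4% of 109 codons against 25.1%, the main choice among the 6 codons of this amino acid. Proline CCA, aspartate GAC, asparagine AAC, phenylalanine TTC and arginine AGA were also higher in the members than in all genes. The genes next below shared much of this. Their share of AAC was 75.9%, against 79.3% in the members, and their share of AGA was 77.8%, above the 69.1% of the members. Glutamate GAA went the other way, with 44.8% of 67 codons in the members against 57.7% in all genes, and cysteine TGT stood at 44.4% of 18 against 52.9%. Codons ending in G or C were 58.3% of all in the members and 44.5% in all genes, while the GC content of the members' probes had a median of 43.6%, against 42.7% over all genes.

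Single members spanned nearly the whole range of codon choice. Every codon in the frame was preferred in 5 members, among them Kwal_23.4381, the highest of all. The lowest share was 11.1%, in Kwal_27.12798, the gene with the widest spread over arrays, the widest gap between separate probes and the brightest genomic DNA of the group. Kwal_55.21989, singled out after its values were seen, had 16.7% at a level of 5.70 ± 0.22 (SD, n = 4), so a low share was not confined to the lower edge. A frame read from 1 stretch of 55 bases may be wrong for a single gene, and such values are less certain than those of the group.

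Members were found along most of the genome. They lay on 10 of 54 contigs, and 0 of them on the 44 contigs with fewer than 20 genes each, which hold 140 genes in all. At the share of 1.73% over all genes, few members would be expected among 140 genes. Contig 14 had 11 members among 402 genes (2.74%) and contig 33 had 6 among 575 (1.04%), and contig 23 held most, 17 among 796. In the order of the identifiers 3 pairs of members were next to each other, a count for which no background was computed.

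These pairs did not stand at the top of the group. Kwal_26.7184 read 5.12 beside Kwal_26.7187 at 4.67, Kwal_27.12084 read 5.45 beside Kwal_27.12088 at 5.39, and Kwal_56.23192 read 4.49 beside Kwal_56.23198 at 4.93. Of 174 other neighbours, which by the choice of members all lie under 4.4, 90 lay above the median gene, and their median level was 0.02 and their highest 3.27.

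The ratio scale of the group depended on how the channels were normalised. After loess within each array, which removes any trend of the ratio with brightness, 0 genes stood at 4.4 or more, the members had a median of 0.39, and 1759 other genes lay above that value. In the log ratio normalised by the scanner software, 4 genes stood at 4.4 or more, 0 of them members, and the members had a median of 1.45. With normexp background correction and no loess, 60 genes stood at 4.4 or more, and all were members. The rest of the 90 fell below it, the lowest to 3.44, and the members had a median of 4.68. In the RNA channel alone, 3 other genes lay above the members' median.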

How the data were processed

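The members, the gene lists and the tests were chosen with earlier results of these data known. RNA of 4 samples was read against genomic DNA on 4 arrays. The deposited scanner files hold median and mean pixel intensity and local background per spot, which the authors extracted with Agilent software. They also hold a deposited log10 ratio of red over green, normalised by that software, whose sign was turned here. A series table made by the authors gives log2 values per gene, not centred, of which 5179 of 5193 rows equal, on all 4 arrays within 1e-05, the unsubtracted ratio of RNA to genomic DNA of some gene in the scanner files, and its column medians were -2.67, -2.44, -2.71 and -2.49. Since this match is by value alone and no probe column bears it out, its rows were not named, and the table gave only a count.

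Background was subtracted from the median signals, log2 of Cy3 over Cy5 was taken with no pseudocount, and 254 probes marked as outliers on any array were left out. Each gene took the median of its probes, centred on the array's median gene, and the mean of the 4 arrays was its level. Subtraction, ratio and median over probes follow the study's methods. Leaving out marked probes and centring on the median gene are not named there, and quantile normalisation, which is, was tried as an alternative. Differences between probes were tested with limma 3.58.1 in R 4.3.3, with treat at a log2 bound of 1, at an adjusted p of 0.05, in a script tested on simulated data. The number of arrays limits the precision. Genes named are the 6 highest, the 3 nearest on each side of the threshold, the 2 largest and 2 smallest SDs, the 2 widest gaps between separate probes, the extremes of genomic DNA and RNA, and adjacent members. Functional lists were not used, since no table pairs the identifiers with names.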

Additional observations from a re-analysis of the deposited data

Results flagged for a closer look

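Of 46 values checked over the 4 arrays, 2 had 1 array far from the other 3, where chance gives about 1 in 20. The brightest genomic DNA signal of any member was 87313 units on array 2 and 51594, 51647 and 55816 units on arrays 1, 3 and 4 (gap over range 0.882). The rise of genomic DNA signal per unit of RNA signal among members was lowest on array 4, at 0.0652, while arrays 1 to 3 ranged from 0.0749 to 0.0769 (gap over range 0.833). The levels of 3 of the 90 members (3.33%) also had 1 array apart by this measure.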

How the results depend on the processing

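With 1 group of arrays, no paired analysis was possible because there is no second group that shares the numbers. The number of genes at 4.4 or more stayed within 1.5 times 90 in the other settings, from 60 with normexp and no loess to 118 with RNA alone, and was 90 in the authors' table. The 60 genes were all members, so the rest of the 90 fell below 4.4 in that setting. The number was 0 after normexp and loess within arrays, whose construction leaves no trend of ratio with brightness, and 4 in the scanner software's log ratio, where the cause was not tested. With each array left out it was 90 to 92 and held all 90 members, whose choice had used the same arrays. The number of members with probes more than 2-fold apart was 0, but 1 in the scanner software's log ratio (4.86% of all genes) and 5 after loess (16.3% of all genes; causes not tested) and 19 with a bound of 0 (54.1% of all genes), and 0 to 0 with each array left out. The share of preferred codons was 82.7% in members and 49.5% in all genes with the frame that holds the most preferred codons, which raises a share by its construction. After loess the levels of 7 of 22 named genes changed sign, to -0.32 in Kwal_56.23626, -0.071 in Kwal_23.3932, -1.34 in Kwal_23.4783, -1.30 in Kwal_27.12798, -0.043 in Kwal_26.7184, -0.61 in Kwal_26.7187 and -0.68 in Kwal_56.23198.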
